A study of Mus musculus with 6 samples.

Results

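Chemokines are small secreted proteins that guide leukocytes, and their receptors are G protein-coupled receptors on the cells that are guided. In liver, resident macrophages (Kupffer cells), sinusoidal endothelium, stellate cells and hepatocytes release ligands, and passing monocytes, neutrophils, T cells, natural killer cells and B cells carry most of the receptors. CC and CXC ligands are named for the spacing of their first cysteines, many of their genes lie side by side in clusters, and most inflammatory ligands share receptors while several homeostatic ones have a receptor of their own. The chemokine ligands and receptors described here are the probe sets whose single gene symbol in the platform annotation is a Ccl, Cxcl, Cx3cl1, Xcl1, Ccr, Cxcr, Cx3cr1 or Xcr1 symbol. The rule used names only, and it was set with earlier results of these data known. It gave 49 of the 18193 genes with a probe set of their own, and 77 of the 45037 probe sets on the array, 51 for 33 ligand genes and 26 for 16 receptor genes.

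Liver RNA was measured in 3 female NZB/BinJ (NZB) mice and 3 female SM/J (SM) mice, all 8 weeks old and from the Jackson Lab, with 1 array per mouse. All animals of both strains were weaned at 3 weeks, ate chow, were fasted for 4 hours and were perfused with 50 mL of phosphate-buffered saline. NZB is an inbred strain known for spontaneous autoimmunity, and SM is another inbred strain. Mice of 1 strain are named as biological replicates. Because whole liver was profiled, a difference in the number of cells of a type and a difference in RNA per cell cannot be told apart. With 3 arrays for each strain, precision is limited throughout.

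Array medians lay between 6.640 and 6.662 in NZB and between 6.602 and 6.643 in SM on the log2 scale. The tissue label fitted its markers. Of 7 measured hepatocyte genes 6 did not pass the test and Hnf4a was lower in NZB (-0.38, adjusted p = 0.0169), a call lost without SM replicate 2, and their summed linear level was 147500 to 152600 in NZB and 144400 to 147700 in SM. SM replicate 2 stood apart in Xist, the RNA of the inactive X chromosome, whose brightest probe set read 12.60 to 12.66 in NZB and 12.84, 7.32 and 12.91 in SM replicates 1, 2 and 3. Results are therefore also given without that array. The probe sets of Y-linked genes, whose RNA females lack, read 3.66 to 8.04 over all 6 arrays, so a reading in that range may hold no RNA of its gene. The top of the range came from 1 Sry probe set (7.70 to 8.04), which the array's naming marks as open to cross-hybridization. Below it, a Zfy2 probe set read up to 6.69 and the remaining Y-linked probe sets up to 5.67. A Y-linked probe set, for Uty, still passed the test between the strains (0.25 on the log2 scale, adjusted p = 0.0412), which bears on the dim chemokine probe sets below. Only 11 of the 77 chemokine probe sets had a mean above 8.04, and 47 had a mean above 5.67, the highest reading for the broadly expressed Y-linked genes Eif2s3y, Uty and Kdm5d. In the probe sets of these genes SM replicate 2 read 3.72 to 5.40 and was never the highest array. The cause of its low Xist was not tested.

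Most chemokine probe sets that differed belonged to ligands and were higher in NZB. Each difference is NZB minus SM in log2 units and comes from 1 limma fit over all probe sets, as does its standard error (SE), and a probe set is called higher or lower where its Benjamini-Hochberg adjusted p over all 45037 was under 0.05. Among the 77 chemokine probe sets, 12 were higher in NZB and 3 were lower, leaving 62 without a call. Over all probe sets, 6.09% were called higher and 8.69% lower, 14.8% in all, against 15.6% called higher, 3.9% called lower and 19.5% in all for the chemokine probe sets. The total share was thus near the background, while the split between directions was not the same. The number called higher was 7 without SM replicate 2, where 3.63% of all probe sets were called higher. It was 6 without NZB replicate 1 or NZB replicate 2 and 7 without NZB replicate 3, beside 4.21%, 3.91% and 3.29% of all probe sets.

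The chemokine differences were small. Their median was 0.095 over all 77, beside 0.023 over all probe sets, and the called ones had a median size of 0.42. A difference past 2-fold was called for 1 probe set, of Cxcl9. A positive sign was found for 60 of the 77 and for 25486 of all 45037. Dim probe sets leaned the same way across the array: of the 33682 whose mean did not exceed 8.04, 21137 had a positive sign, and their median was 0.039. All 3 NZB arrays lay above all 3 SM arrays for 29 of the 77 chemokine probe sets and below them for 4, where the shares over all probe sets were 18.2% and 16.1%.

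**Figure D1:**
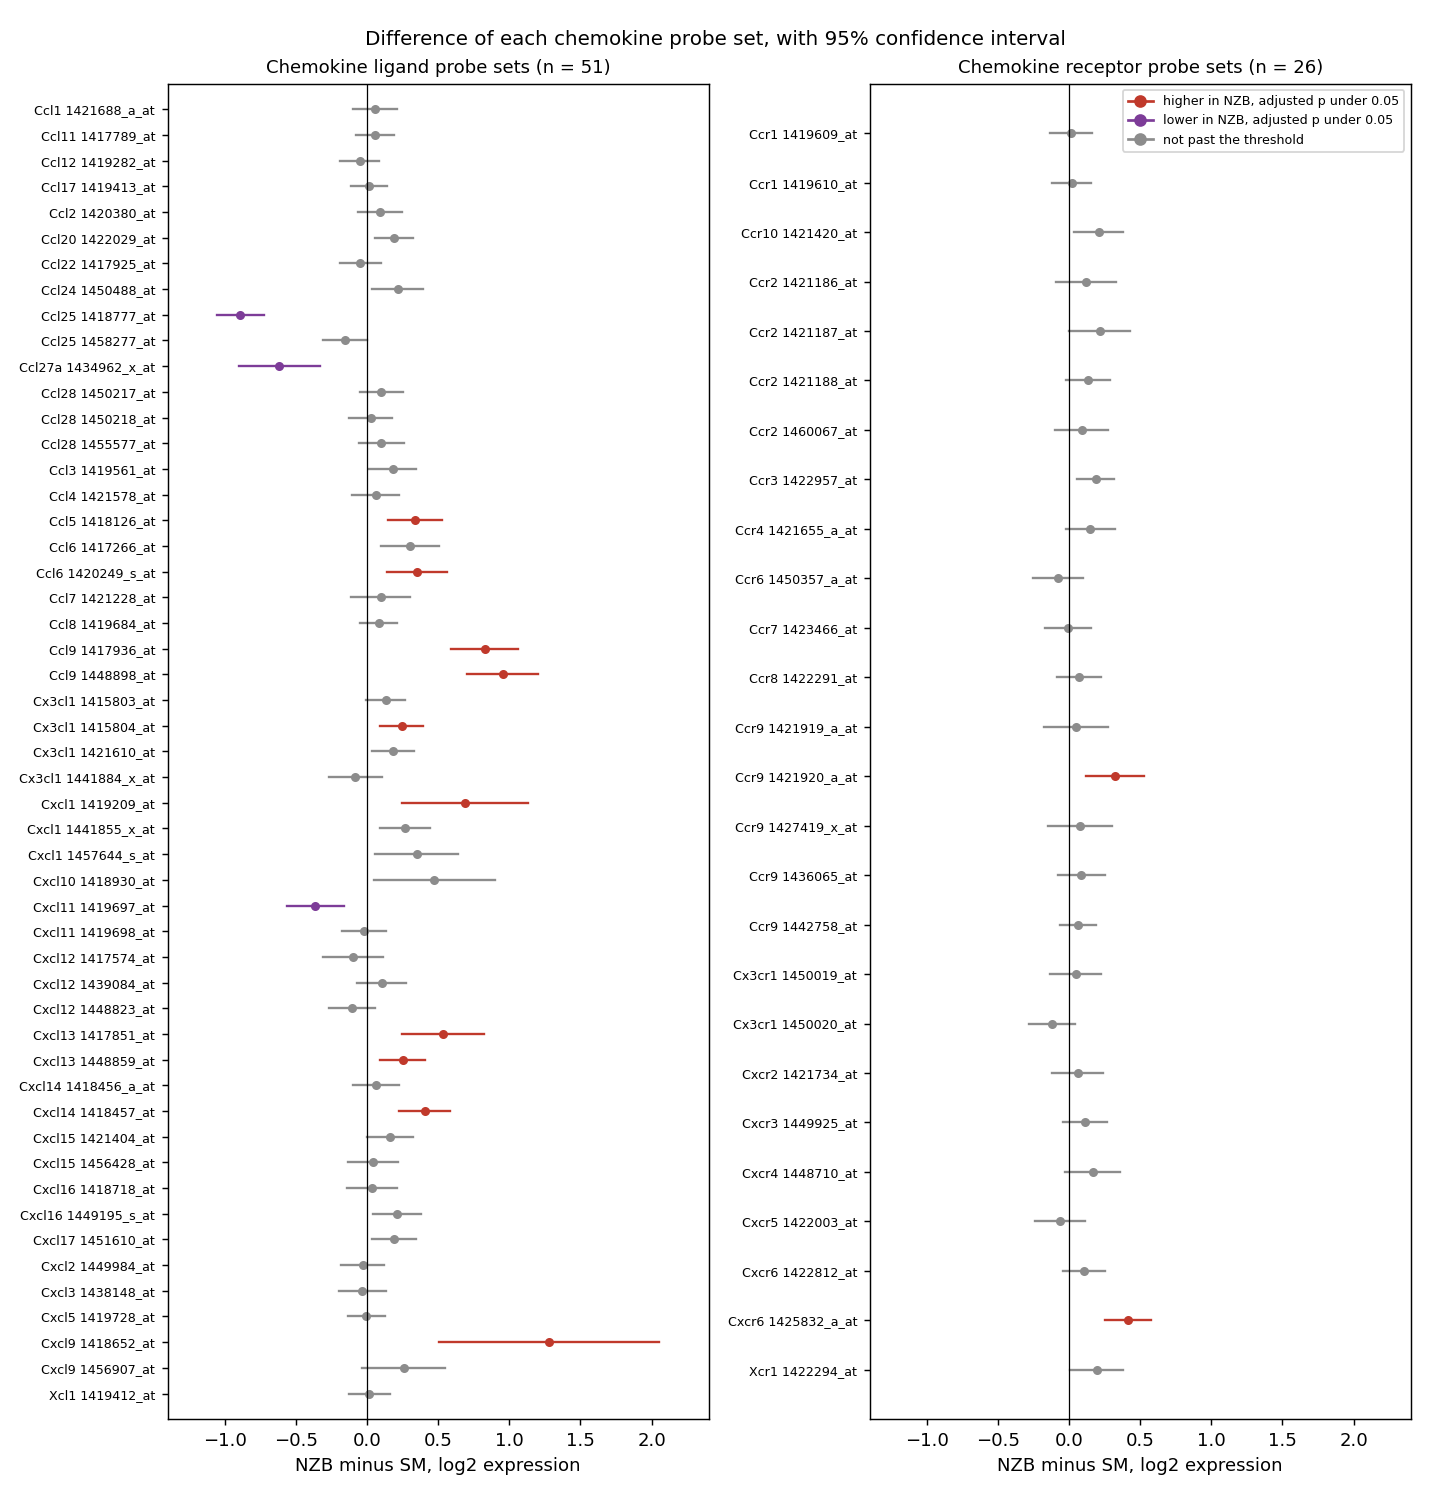
Difference between NZB and SM (log2 expression, horizontal axis) for each of the 51 ligand and 26 receptor probe sets, with bars for the 95% confidence interval of the limma fit (3 arrays per strain). Red marks the 12 probe sets called higher in NZB, purple the 3 called lower and grey the rest, and most intervals lie within 0.5 of 0.

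Among the CC ligands of the Ccl5 to Ccl4 gene neighbourhood, Ccl9, Ccl6 and Ccl5 had probe sets called higher in NZB. Ccl9, a ligand of CCR1 made by macrophages and other myeloid cells, read 12.41, 12.70 and 12.38 in NZB replicates 1, 2 and 3, against 11.78, 11.71 and 11.51 in SM by its brighter probe set. Every NZB array was above every SM array. It was 1.77-fold higher in NZB (0.83, SE 0.10, adjusted p = 0.00110), and its other probe set gave the same direction, with 11.65, 12.01 and 11.61 in NZB and 10.89, 10.85 and 10.67 in SM (0.95, SE 0.11, adjusted p = 0.000762). Both calls held under each alternative that tested them, with adjusted p no higher than 0.00575. Of the 11 chemokine genes with several probe sets of which at least 1 was called, Ccl9 and Cxcl13 alone had all of them called.

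Ccl6, another CCR1 ligand of myeloid cells that in mice lies next to Ccl9 among the chemokine genes, had the same direction with smaller values. Its brighter probe set read 8.42, 8.66 and 8.49 in NZB and 8.13, 8.38 and 8.15 in SM, without overlap, and missed the threshold (0.30, SE 0.091, adjusted p = 0.0566). The dimmer one, which the array's naming marks as shared between transcripts, read 6.73, 6.82 and 6.81 in NZB and 6.25, 6.63 and 6.43 in SM (0.35, SE 0.094, adjusted p = 0.0356). Its call ended without NZB replicate 1, 2 or 3, without SM replicate 1 or 3 and in 2 other settings (adjusted p up to 0.115), and the brighter probe set passed without SM replicate 2 and in 5 other settings (adjusted p down to 0.0248).

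Ccl5, which attracts T cells and natural killer cells, read 7.60, 7.62 and 7.71 in NZB and 7.26, 7.19 and 7.47 in SM. It was 1.26-fold higher in NZB (0.34, SE 0.083, adjusted p = 0.0265). Leaving out any array but SM replicate 3 ended the call (adjusted p up to 0.102). The 2 genes at the far end of this neighbourhood, Ccl3 and Ccl4, which encode inflammatory ligands made by activated leukocytes, did not pass the test. Ccl3 read 5.06 to 5.13 in NZB and 4.86 to 5.06 in SM (0.18, adjusted p = 0.140), and Ccl4 read 7.67 to 7.70 in NZB and 7.55 to 7.76 in SM (0.061, adjusted p = 0.633). Whether Ccl9 differed more than its neighbours was not tested.

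**Figure D2:**
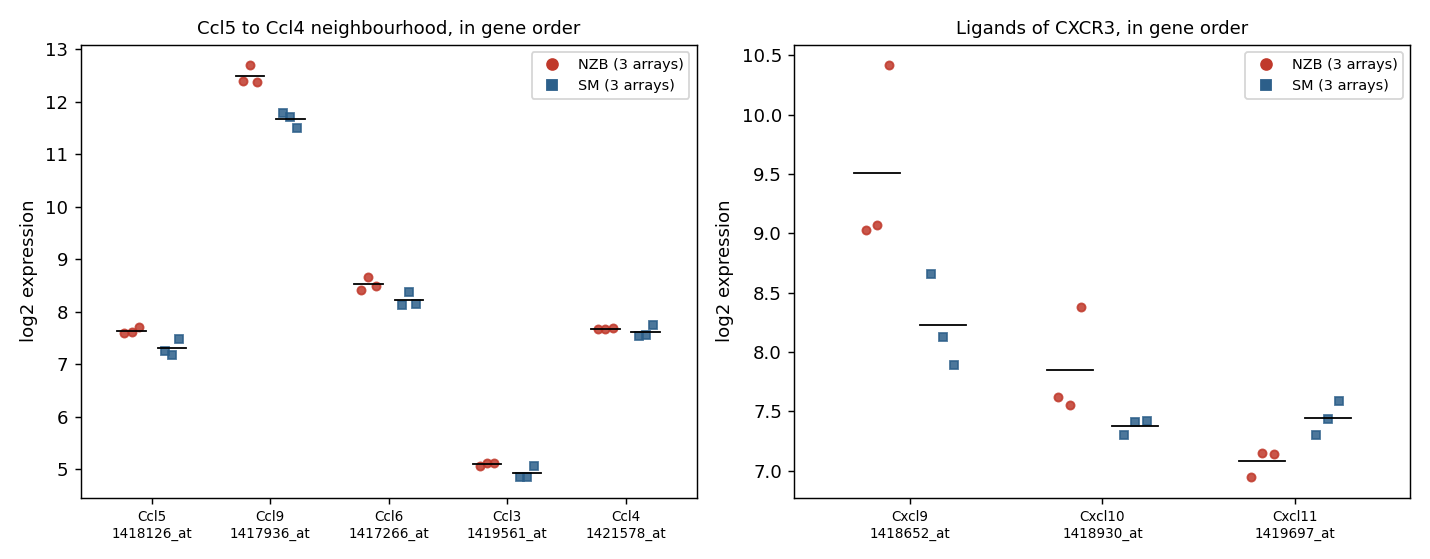
Log2 expression (vertical axis) on each array, NZB circles left of SM squares, for the brightest probe set of each gene in gene order, with black lines at strain means. Ccl9 shows the widest gap of the left panel, and NZB replicate 3 stands above the other NZB arrays for Cxcl9 and Cxcl10 in the right panel.

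Another group of CC ligands, Ccl2, Ccl7, Ccl11, Ccl12, Ccl8 and Ccl1, recruits monocytes through CCR2 (Ccl2, Ccl7 and Ccl12), eosinophils through CCR3 (Ccl11) and T cells through CCR8 (Ccl1 and, in mice, Ccl8). None of these 6 passed the test, and their unadjusted p-values all exceeded 0.05 as well. Ccl2 read 5.93, 5.90 and 6.01 in NZB and 5.78, 5.84 and 5.95 in SM, so the strains overlapped (0.092, 95% interval -0.062 to 0.25, adjusted p = 0.415). Its mean lay in the range of the Y-linked readings.

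Ligands of CXCR3, the receptor of activated T cells and natural killer cells, did not move together. Cxcl9, which is induced by interferon gamma, read 9.03, 9.07 and 10.42 in NZB replicates 1, 2 and 3, against 8.66, 8.12 and 7.89 in SM. NZB replicate 3 was the high one, and the other NZB arrays still lay above all SM arrays. Cxcl9 was 2.43-fold higher in NZB (1.28, SE 0.34, adjusted p = 0.0365), the largest difference among the chemokine probe sets. The call ended without SM replicate 2, without SM replicate 3, with trended and robust variances and with the replicate block (adjusted p up to 0.163), and its value without NZB replicate 3 was 0.83. The second Cxcl9 probe set read 6.41, 6.41 and 6.90 in NZB and 6.20, 6.33 and 6.42 in SM, with overlap (0.26, SE 0.13, adjusted p = 0.224).

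Cxcl10, whose gene lies near that of Cxcl9 and responds to both interferon types, read 7.62, 7.55 and 8.38 in NZB and 7.31, 7.41 and 7.42 in SM. NZB replicate 3 was again high, no array overlapped, and the gene did not pass the test (0.47, SE 0.19, adjusted p = 0.129). Cxcl11, the third ligand, went the other way. It read 6.95, 7.15 and 7.14 in NZB and 7.31, 7.44 and 7.59 in SM, a level 1.29-fold below that of SM (-0.36, SE 0.089, adjusted p = 0.0262). The call ended without SM replicate 2 or 3, without NZB replicate 1 or 3 and with the mean of its probe sets (adjusted p up to 0.0828). RefSeq lists Cxcl11 as a transcribed pseudogene in the C57BL/6J reference assembly, GRCm38.p6, and which allele NZB and SM carry was not analysed here. Its other probe set read 4.44 to 4.52 in NZB and 4.43 to 4.61 in SM (-0.023, adjusted p = 0.862).

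Among inducers of these ligands, interferon gamma itself, Ifng, read 4.84 to 5.10 in NZB and 4.872 to 5.001 in SM, within the Y-linked readings. Irf1, a transcription factor that interferon gamma induces, read 9.93, 10.10 and 10.18 in NZB and 9.84, 9.69 and 9.63 in SM (0.35, SE 0.085, adjusted p = 0.0235). That call was lost without SM replicate 2 or 3, without NZB replicate 2 or 3 and with the replicate block (adjusted p up to 0.0936).

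The neutrophil-attracting CXC ligands act on CXCR2, and of these Cxcl1 was higher in NZB by 1 of its 3 probe sets. That probe set read 8.52, 9.05 and 8.16 in NZB and 8.01, 7.99 and 7.67 in SM, 1.61-fold higher (0.69, SE 0.20, adjusted p = 0.0462). NZB replicate 2 was the high array. The call ended without any single array but NZB replicate 3 and in 3 other settings (adjusted p up to 0.113). The other Cxcl1 probe sets, both marked by the array's naming as open to cross-hybridization or shared transcripts, differed by 0.27 (adjusted p = 0.0529) and 0.35 (adjusted p = 0.107), with every NZB array above every SM array in each. Cxcl2, Cxcl3 and Cxcl5, further ligands of this receptor among the members, read between 3.83 and 4.44 on all arrays. They differed by -0.031, -0.033 and -0.0039, with overlap throughout.

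Promoter sequence was not used to choose the members. RefSeq promoter windows were found for 36 of the 49 genes, and the 250 bases before the annotated start were searched on both strands for GGGA and TTCC parted by any 2 bases, a form of the site known for NF-kB, the main inflammatory regulator of chemokine genes. It was present for Cxcl1, Cxcl2, Cxcl3, Cxcl10, Ccl1 and Ccr3, 6 of 36 genes, and in 1.21% of all 32851 windows. The stretches around the matches in the CXC genes are shown because the called Cxcl1 shares them with Cxcl2, Cxcl3 and Cxcl10, which did not pass the test. Matches are in capitals, sequences are those of the reference assembly (GRCm38.p6, C57BL/6J) and not of NZB or SM, and a match is no proof of a site.
Cxcl1, chr5:90891159-90891199, plus strand: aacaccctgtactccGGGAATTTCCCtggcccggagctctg
Cxcl2, chr5:90903787-90903827, plus strand: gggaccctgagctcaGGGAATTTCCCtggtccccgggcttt
Cxcl3, chr5:90786013-90786053, plus strand: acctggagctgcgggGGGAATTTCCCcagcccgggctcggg
Cxcl10, chr5:92349024-92349063, minus strand: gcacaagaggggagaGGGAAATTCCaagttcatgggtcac

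In Cxcl1, Cxcl2 and Cxcl3 the capitals hold 2 overlapping matches, and they begin 71, 97 and 73 bases before the start. In Cxcl10 the match begins 159 bases before the start. The windows of Cxcl9 and Ccl9, the members with the largest called increases, held no such match. Their 250 bases before the start are given for comparison, with TATAAA on either strand in capitals in that of Ccl9, where it occurs 3 times, 2 of them overlapping. That motif was found in 12.4% of all windows and in those of 11 of the 36 genes, Cxcl9 among them, where it is left in lower case.
Cxcl9, chr5:92328080-92328329, minus strand: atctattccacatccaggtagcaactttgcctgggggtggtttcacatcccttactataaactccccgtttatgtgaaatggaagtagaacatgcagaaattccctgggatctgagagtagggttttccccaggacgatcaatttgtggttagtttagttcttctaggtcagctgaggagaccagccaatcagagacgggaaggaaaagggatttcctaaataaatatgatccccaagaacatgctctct
Ccl9, chr11:83578637-83578886, minus strand: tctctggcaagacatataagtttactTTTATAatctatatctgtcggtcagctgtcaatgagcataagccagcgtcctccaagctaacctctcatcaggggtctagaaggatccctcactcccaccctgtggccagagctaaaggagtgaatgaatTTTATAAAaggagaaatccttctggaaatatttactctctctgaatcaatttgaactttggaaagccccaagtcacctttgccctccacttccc

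An interferon response type motif, GAAA and GAAA parted by any 2 bases, was found in the windows of Cxcl10 and Cxcl14, 2 of 36 genes, and in 2.98% of all windows. A STAT type motif, TTCNNNGAA, was found for Ccl17, Ccr6 and Cxcl14, 3 of 36, and in 7.02% of all windows. Cxcl9 held neither within these bases.

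The homeostatic CXC ligands behaved differently from one another. Cxcl13, which draws B cells into follicles through CXCR5, read 7.004, 7.265 and 7.137 in NZB and 6.29, 6.79 and 6.72 in SM by 1 probe set, 1.45-fold higher (0.54, SE 0.13, adjusted p = 0.0232). Its brighter probe set read 8.18, 8.12 and 8.00 in NZB and 7.80, 7.82 and 7.92 in SM (0.25, SE 0.071, adjusted p = 0.0449). In both, all NZB arrays were above all SM arrays. The first call ended without NZB replicate 2 or 3 (adjusted p up to 0.0844), and the second without NZB replicate 1 or 2, without SM replicate 1 or 2 and in 3 other settings (adjusted p up to 0.133).

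Cxcl12, the ligand of CXCR4 that retains leukocytes in tissue and is made by stromal and endothelial cells, did not pass the test by any of 3 probe sets. The brightest read 10.70, 10.65 and 10.80 in NZB and 10.91, 10.74 and 10.81 in SM, with overlap (-0.11, 95% interval -0.27 to 0.053, adjusted p = 0.361). Cxcl16, a membrane-bound ligand of CXCR6 that Kupffer cells and sinusoidal endothelium display, read 8.54, 8.64 and 8.52 in NZB and 8.67, 8.43 and 8.48 in SM (0.038, 95% interval -0.14 to 0.21, adjusted p = 0.795). Its other probe set, shared between transcripts, differed by 0.21 (adjusted p = 0.0963).

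Cxcl14, an epithelial ligand, gave values that depended on the probe set. The dim one read 5.39, 5.41 and 5.39 in NZB and 5.07, 5.09 and 4.82 in SM (0.40, SE 0.079, adjusted p = 0.00985), a call that held under each alternative that tested it but lies in the range of the Y-linked readings. The bright one read 8.00, 8.14 and 8.03 in NZB and 7.93, 7.97 and 8.09 in SM (0.064, SE 0.071, adjusted p = 0.602). Its mean of 8.03 was also in that range, at the upper end. Cx3cl1, the membrane-bound ligand of CX3CR1, had 4 probe sets with differences of 0.25, 0.18, 0.13 and -0.081. The first, at 7.35, 7.26 and 7.40 in NZB and 7.09, 7.03 and 7.16 in SM, passed the test (adjusted p = 0.0397), and its call ended without NZB replicate 1 or 3, without SM replicate 1 or 2 and in 3 other settings (adjusted p up to 0.139).

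Besides Cxcl11, the probe sets called lower were those of Ccl25 and Ccl27a. Ccl25, which guides T cells to thymus and small intestine through CCR9, read 6.03, 6.03 and 6.08 in NZB and 7.03, 6.98 and 6.79 in SM, a wide gap without overlap. In NZB its level was lower by 1.85-fold (-0.89, SE 0.074, adjusted p = 0.000110), and the call held under each alternative that tested it (-0.96 to -0.84). The mean of this probe set lay in the range of the Y-linked readings. The other Ccl25 probe set read 7.02, 6.88 and 7.07 in NZB and 7.12, 7.18 and 7.13 in SM, also without overlap, and did not pass (-0.15, SE 0.068, adjusted p = 0.170).

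Ccl27a, a skin ligand of CCR10, read 7.09, 6.83 and 7.20 in NZB and 7.909, 7.505 and 7.546 in SM, 1.53-fold lower (-0.62, SE 0.13, adjusted p = 0.0118). That call held under each alternative that tested it (adjusted p up to 0.0406), on a probe set whose mean lay in the range of the Y-linked readings. Its probe set is marked for cross-hybridization, and Ccl27a has near-identical copies, so which copy it reads is uncertain. Ccl28, the mucosal ligand of CCR10, differed by 0.10, 0.026 and 0.10 in 3 probe sets, none past the test. Ccl20, the ligand of CCR6, read 7.61, 7.60 and 7.66 in NZB and 7.39, 7.46 and 7.46 in SM without overlap, just short of the threshold (0.19, SE 0.059, adjusted p = 0.0637). The remaining ligands, Ccl17, Ccl22, Ccl24, Cxcl15, Cxcl17 and Xcl1, differed by -0.049 to 0.22 and did not pass.

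**Figure D3:**
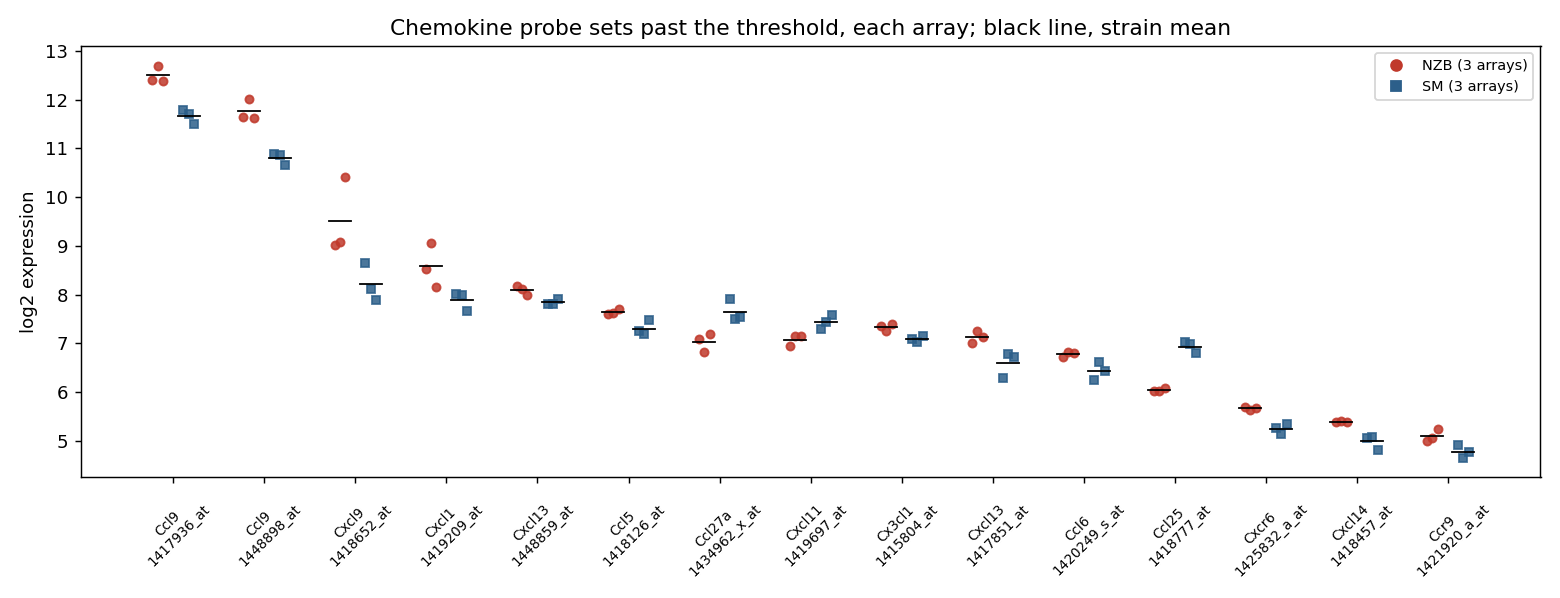
Log2 expression (vertical axis) on each of the 3 NZB arrays (circles, left) and 3 SM arrays (squares, right) for the 15 chemokine probe sets past the threshold, ordered by brightness, with black lines at strain means. The strains do not overlap in any of them, and the gap is below 1 for all but Cxcl9.

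Of the 26 receptor probe sets, 2 (7.69%) were called higher and 0 lower by limma, beside 6.09% and 8.69% over all probe sets. An unadjusted p under 0.05 was found for 6 of the 26 and for 13184 of all 45037. The differences of the 24 receptor probe sets without a call lay between -0.12 and 0.21. Both calls fell on dim probe sets. Cxcr6, a receptor of T cells and natural killer T cells in liver sinusoids, read 5.70, 5.64 and 5.67 in NZB and 5.26, 5.14 and 5.36 in SM (0.42, SE 0.071, adjusted p = 0.00509), and this call held under each alternative that tested it. Its other probe set read 3.97 to 4.09 in NZB and 3.87 to 4.00 in SM (0.11, adjusted p = 0.330).

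Ccr9, the receptor for Ccl25, was called higher by 1 of 5 probe sets, at 5.004, 5.065 and 5.247 in NZB and 4.92, 4.66 and 4.77 in SM (0.32, SE 0.090, adjusted p = 0.0424). The call ended without any single array but SM replicate 1 and in 3 other settings (adjusted p up to 0.147). The other Ccr9 probe sets differed by 0.049 to 0.086.

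Of the other receptors, several bind ligands described above, and none of those given next was called. Ccr1, the receptor for Ccl9 and Ccl6, read 5.18 to 5.24 in NZB and 5.12 to 5.27 in SM, with overlap (0.014, 95% interval -0.13 to 0.16, adjusted p = 0.916). Cxcr3 read 6.92, 7.06 and 7.10 in NZB and 6.94, 6.90 and 6.91 in SM (0.11, adjusted p = 0.319). Cxcr2 read 7.005, 7.211 and 6.942 in NZB and 6.988, 6.969 and 7.019 in SM (0.061, adjusted p = 0.660). Cxcr5, the receptor for Cxcl13, differed by -0.063 (adjusted p = 0.638), Ccr10 by 0.21 (adjusted p = 0.101), Ccr3 by 0.19 (adjusted p = 0.0602) and Cx3cr1 by -0.12 in its brighter probe set (adjusted p = 0.307).

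Ccr2, the receptor of inflammatory monocytes, had the only receptor probe set above all Y-linked readings. It read 8.37, 8.52 and 8.29 in NZB and 8.22, 8.27 and 8.43 in SM, with overlap (0.088, 95% interval -0.099 to 0.27, adjusted p = 0.531), and the other 3 Ccr2 probe sets differed by 0.12 to 0.21 without passing. Cxcr4, Ccr4, Ccr6, Ccr7, Ccr8 and Xcr1 differed by -0.078 to 0.19 and did not pass.

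Proteins that bind chemokines without a classic receptor signal were read from a list of atypical receptors. Of 5 measured, 1 was higher in NZB, Ackr1, which takes up inflammatory chemokines on endothelium and red cells. It read 8.37, 8.50 and 8.47 in NZB and 7.99, 7.83 and 8.14 in SM (0.46, SE 0.085, adjusted p = 0.00753), and the call held under each alternative that tested it. Among all genes taken by their brightest probe set, 7.09% were called higher and 11.2% lower, and their median difference was 0.021. The platelet chemokines Pf4 and Ppbp, whose symbols fall outside the naming rule, were both higher in NZB, by 0.48 (SE 0.089, adjusted p = 0.00781) and 0.37 (SE 0.085, adjusted p = 0.0210). Pf4 read 6.77, 6.92 and 6.86 in NZB and 6.43, 6.50 and 6.19 in SM, and the call of Ppbp was lost without SM replicate 2 and without NZB replicate 2 or 3. Of 5 platelet and megakaryocyte markers, all with means within the Y-linked readings, 1 was higher, Itga2b (0.20, adjusted p = 0.0483), a call lost without SM replicate 2.

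Below the receptors, 4 of 30 measured genes of signal transduction were higher in NZB and 3 were lower, with a median of 0.0021. The higher ones were Rac2, a GTPase of leukocyte migration (0.41, SE 0.096, adjusted p = 0.0220), Was, an actin regulator of blood cells (0.37, SE 0.065, adjusted p = 0.00604), the signalling regulator Rgs2 (0.26) and Arrb2, an arrestin that ends receptor signals (0.23). Without SM replicate 2, only Was among these 4 stayed called. Rac2 also lost its call without NZB replicate 2 or 3, Rgs2 without any array but SM replicate 1, and Arrb2 without any array. The lower ones were Rgs16, a regulator that shortens G protein signals (-1.88, SE 0.31, adjusted p = 0.00411), the kinase Ptk2b (-0.40, SE 0.065, adjusted p = 0.00377) and the G protein subunit Gnb1 (-0.34, SE 0.072, adjusted p = 0.0132). Rgs16 read 9.56, 8.78 and 8.36 in NZB and 10.21, 11.06 and 11.07 in SM. Gnb1 lost its call without NZB replicate 3 (adjusted p = 0.0598) and Ptk2b with the mean of its probe sets (-0.14, adjusted p = 0.127).

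Of 18 measured inducers of chemokine transcription, 2 were higher in NZB and 3 were lower, with a median of 0.046. Besides Irf1, the cytokine gene Il1b was higher (0.27, SE 0.067, adjusted p = 0.0257), and its call was lost without SM replicate 2 and without NZB replicate 2 or 3. The lower ones were Nfkbiz, a nuclear cofactor of NF-kB (-1.67, SE 0.18, adjusted p = 0.000464), the acute phase transcription factor Cebpb (-1.34, SE 0.13, adjusted p = 0.000255) and the Toll-like receptor adaptor Myd88 (-0.23, adjusted p = 0.0423). Nfkbiz read 7.28, 7.56 and 6.81 in NZB and 8.79, 9.14 and 8.73 in SM. Myd88 lost its call without any array but SM replicate 3. Tnf, Rela and Nfkbia, central to NF-kB signalling, differed by 0.057, -0.15 and -0.014 and did not pass.

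Among 18 measured genes of adhesion, shedding and cleavage, 4 were higher and 1 was lower, with a median of 0.074. The leukocyte integrins Itgb2 (0.64, SE 0.079, adjusted p = 0.000946) and Itgal (0.46, SE 0.080, adjusted p = 0.00564), their ligand Icam1 (0.36, SE 0.066, adjusted p = 0.00736) and the integrin Itga4 (0.25, SE 0.065, adjusted p = 0.0300) were higher, and Itga4 lost its call without NZB replicate 2 or 3 and without SM replicate 2 or 3. Itgb2 read 8.11, 8.28 and 8.30 in NZB and 7.61, 7.67 and 7.48 in SM. Sdc4, a heparan sulfate proteoglycan that can hold chemokines, was 2.23-fold lower (-1.16, SE 0.092, adjusted p = 8.8e-05). With the mean of its probe sets it differed by -0.11 and lost its call.

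Marker lists of other liver cells were read on the same arrays. Of 8 Kupffer cell markers, 3 were higher in NZB (Vsig4, Cd5l and Adgre1) and 1 was lower (Marco), and their summed linear level was 5630 to 6681 in NZB and 4375 to 4940 in SM. None of the 8 had a mean at or below 5.67. Of 5 measured monocyte markers, 3 were higher (Plac8, Csf1r and F13a1), with a sum of 3504 to 3885 in NZB and 2476 to 2693 in SM. Most of that sum came from Csf1r, which read 11.42, 11.56 and 11.38 in NZB and 10.91, 11.06 and 11.03 in SM. Chil3 and F13a1 had means at or below 5.67. These values stand beside those of Ccl9 and Ccl6, and their part in them was not tested.

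Of 7 neutrophil markers, 3 were higher (S100a8, S100a9 and Ngp), with a sum of 943.7 to 1061 in NZB and 760.2 to 795.1 in SM, and all 7 had means within the Y-linked readings. S100a8 read 6.45, 7.39 and 6.81 in NZB and 5.78, 5.97 and 5.89 in SM, and NZB replicate 2 was high in it as in Cxcl1. Of 9 T cell markers, 4 were higher (Cd3d, Cd3e, Cd3g and Thy1), with a sum of 933.2 to 988.5 in NZB and 833.8 to 884.7 in SM. Of 7 NK cell markers, 2 were higher (Klrd1 and Nkg7), with 599.1 to 605.4 in NZB and 520.8 to 566.8 in SM. All of these T and NK cell markers had means within the Y-linked readings, Cd3g, Cd2, Il7r, Thy1 and Klrd1 at or below 5.67. The part of these cells in the values of Ccl5, Cxcl9 and Cxcr6 was not tested. Without SM replicate 2, the T cell markers called higher numbered 2 and those of NK cells 0.

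B and plasma cell markers had 3 of 7 higher (Ighm, Jchain and Ms4a1), with a sum of 6521 to 13120 in NZB and 799.3 to 870.3 in SM, and the highest sum came from NZB replicate 3. Jchain read 9.81, 10.09 and 11.22 in NZB and 5.94, 6.30 and 6.03 in SM. NZB replicate 3 was thus the high array in Cxcl9, Cxcl10 and Jchain, and the relation between them was not tested. By limma 0 of 6 measured dendritic cell markers passed. Of 10 sinusoidal endothelium markers, 4 were higher and 2 were lower, with a sum of 7625 to 8499 in NZB and 6909 to 7133 in SM. Stellate cell markers summed to 3335 to 4356 in NZB and 4893 to 5292 in SM, with 1 of 7 lower (Rgs5) and none higher, while Cxcl12, which such stromal cells make, did not pass. Cholangiocyte markers had none of 4 past the test.

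**Figure D4:**
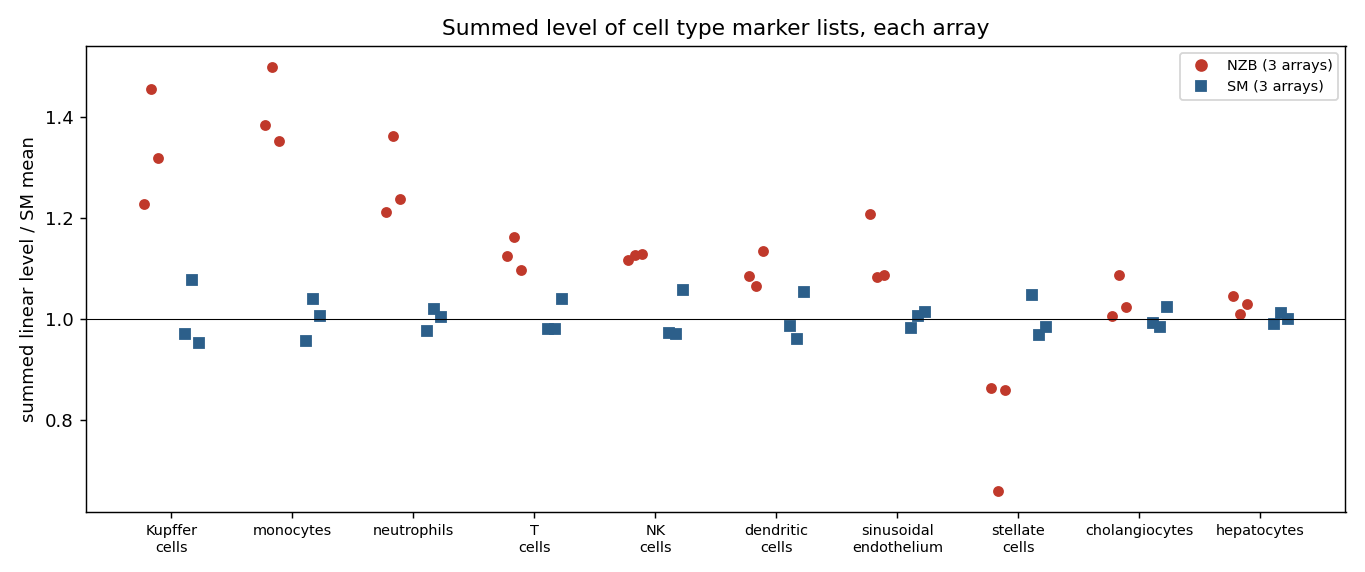
Summed linear level of each cell type's marker genes on each array, divided by the mean of the 3 SM arrays (vertical axis), with NZB circles left of SM squares. Kupffer cell, monocyte, neutrophil, T cell, NK cell, dendritic cell and sinusoidal endothelium sums lie above those of SM on all NZB arrays. Stellate cell sums lie below, and hepatocyte sums stay near 1 (B and plasma cells and platelets are not drawn). Most of the monocyte sum comes from Csf1r.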

How the data were processed

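The deposited values are log2 expression, 1 column per mouse for 6 mice, made by the authors with RMA, per the submitters' processing notes. RMA subtracts background, brings the arrays to 1 distribution and combines a probe set's probes, and it compresses differences near background. The RMA version is not given in the sources used here. That values are log2 was read from the range of the values (maximum 14.9). All sample columns were matched by name, leaving 0 unmatched. Gene names came from the platform annotation, updated by Entrez ID through RefSeq (GRCm38.p6). Of 45037 probe sets, 34945 had 1 gene, 932 several and 9160 none. All 77 member probe sets matched RefSeq.

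NZB was tested against SM by lmFit and eBayes of limma 3.58.1 (R 4.3.3; trend and robust off), two-sided, adjusted over all probe sets. An exact permutation test of 3 against 3 mice cannot go below p = 0.1 and was not used. Gene lists used each gene's probe set with the highest mean over all arrays, and sums are of 2 to the power of its values. Genes named are the called members, their other probe sets and partners, the brightest ligands and receptors, and up to 3 called members per direction of each pathway list. Further members, and marker genes, were named after their values were seen, to account for all members. Members and lists were chosen with earlier results of these data known. On simulated data of 45037 probe sets for NZB minus SM, the fit recovered 60 of 100 differences of 0.5 and 91 of 100 of 1, with 2 false calls. No other probe set was changed there, whereas 14.8% of all probe sets were called in the data. The simulated counts therefore need not hold for the data. Strain sequence variants under the probes, which can change binding, were not analysed here. Alternatives covered normalization, variances, array weights, dim and cross-hybridizing probe sets, the gene as unit, the replicate block and each array left out.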

Additional observations from a re-analysis of the deposited data

How the results depend on the processing

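Of the 15 called chemokine probe sets, 6 kept their call and direction in every alternative that tested them (both of Ccl9, the called ones of Ccl25, Ccl27a, Cxcl14 and Cxcr6) and 9 lost it in at least 1 of 16 alternatives. No called probe set changed sign. Of the 62 others, 11 passed in some alternative and 15 changed sign in some alternative. With only probe sets above the highest Y-linked reading, 11 members remain by construction. Of these, 6 were called higher and 0 lower by limma, and the median of the 11 was 0.30. Of all probe sets kept, 36.4% were called, and 7 of the 11 had an unadjusted p under 0.05 in the report's setting. In the pathway and cell type lists 16 genes were higher, against 36 in the report's setting. The filter left out list genes by construction as well, among them all neutrophil, T cell, NK cell and platelet markers. The counts 16 and 36 therefore do not have the same base, and the drop alone does not show that genes kept lost their calls. A filter at 5.67, chosen after seeing the data, left 47 members with 10 higher and 3 lower, where 8.19% of all probe sets kept were higher and 12.4% lower. Leaving out 1 array at a time gave 6 to 12 members higher, 2 to 3 lower, a median of 0.078 to 0.11, and 22 to 31 list genes higher and 9 to 12 lower. With 1 array fewer, 8.31% to 14.2% of all probe sets were called. With array medians aligned 8 members were higher and 3 lower, beside 4.62% and 10.1% of all probe sets. With quantile normalization 11 were higher and 3 lower, beside 6.34% and 7.45%. The replicate block left 10 higher and 3 lower, beside 5.32% and 8.01% of all probe sets, with 27 list genes higher and 11 lower. Same-numbered mice did not deviate together from their strain means over all probe sets (correlations 0.0373, -0.0545 and 0.0249). Whether the numbers mark a pairing that touches fewer probe sets was not tested. Dim signal limits both ligands and receptors. Only 10 of the 51 ligand probe sets had a mean above the highest Y-linked reading, and 25 of the 26 receptor probe sets did not exceed it. Of the called probe sets, 8 called higher and all 3 called lower had means not above it. Those of Ccl5, Cxcl11, Cxcl13 and Cx3cl1 were among them. The filter at that reading also left out the called probe sets of Ccl25, Ccl27a, Cxcl14 and Cxcr6, so it did not test their calls.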

Other observations

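Probe sets that the platform pairs with several chemokine copies belong in no comparison above. Those for the Ccl27 copies read 8.20, 7.99 and 8.18 in NZB and 8.48, 8.24 and 8.16 in SM (-0.17, limma adjusted p = 0.269), and 7.82, 7.60 and 7.77 in NZB and 8.25, 7.91 and 7.97 in SM (-0.31, limma adjusted p = 0.0652). The second shows no overlap between the strains and the same direction as the Ccl27a probe set. The probe set for the Ccl21 copies, ligands of CCR7 that guide T cells and dendritic cells to lymph nodes, read 7.70, 7.67 and 7.76 in NZB and 7.72, 7.38 and 7.70 in SM (0.11, limma adjusted p = 0.496). That for the Ccl19 copies, which use the same receptor, read 8.03, 8.02 and 8.04 in NZB and 7.89, 7.75 and 7.94 in SM, without overlap (0.17, limma adjusted p = 0.126).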
